A study of Mus musculus with 39 samples.

Results

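The genes described here are 39 cell cycle genes, 22 that act in mitosis and 17 that act in S phase, taken by symbol from the 39179 genes of a count table of mouse tumours. The rule names the genes and uses no measured value, but the genes were chosen with earlier results of these data known. Shares of members given beside those of all genes are therefore descriptions. All 39 were found, and all 39 were among the 15070 genes that passed the filter on low counts. The mitosis and S phase genes are given apart throughout.

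The tumours came from a Braf-mutated melanoma line injected into C57BL/6 mice. From day 7 after injection the mice received vehicle (a DMSO, PEG400 and water mixture), anti-PD-1, EPAT or both agents (the combination), and tumours were taken after 2 or 5 days. EPAT is a pair of antagonists that block EP2 and EP4, receptors of prostaglandin E2. Its dose was 30 mpk in a volume of 200 µl of a 3 mg/mL stock, and vehicle was given in the same volume. Anti-PD-1 is an antibody against an inhibitory receptor of T cells, given at 200 µg per dose. No vehicle volume is listed for anti-PD-1 alone, and no antibody dose for vehicle or EPAT alone. Comparisons of anti-PD-1 with vehicle may therefore also differ in receipt of the vehicle mixture. Each of the 8 groups held 5 libraries, except anti-PD-1 on day 2 with 4, for 39 libraries in all. The labels give no age or sex of the mice and leave unsaid whether each library of a group is a different animal, so p-values cover only the spread among libraries, which may be technical. They name 1 tumour line. Day 4 appears in the extraction text as the day of isolation and is neither of the sampled days, and groups follow each library's own time point. The first number in the library titles goes with 1 group each in 36 of 39 libraries. The other 3 (replicate 5 of anti-PD-1 on day 5, replicate 1 of EPAT on day 5 and replicate 5 of EPAT on day 2) are numbered with the other day's group of the same treatment, and calls are also given without them.

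A dividing cell licenses its replication origins by loading the MCM helicase in G1, copies its DNA in S phase, and separates the copies in mitosis. Transcripts of the S phase genes accumulate around the G1/S boundary, largely under E2F factors. Transcripts of the mitosis genes accumulate in G2 and are shut off in resting cells by the DREAM complex, which binds a promoter element called the CHR, often near CCAAT boxes bound by NF-Y. In bulk tumour RNA these transcripts report on all dividing cells together, tumour cells and host cells alike.

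Promoter stretches of both sets are shown because they carry the elements by which the sets are known to be told apart. Each is the 150 bases before the RefSeq start of the gene (GRCm38.p6), written 5′ to 3′ on the gene's strand. Capitals mark matches, on either strand, to TTTGAA (the CHR), to TTTGGCGC, TTTCGCGC, TTTCCCGC or TTTGCCGC (E2F), and to CCAAT. The mitosis genes Cdc20 and Ube2c (anaphase), Cdk1 (the mitotic kinase) and Ccnb1 (its cyclin) come first, followed by the S phase genes Mcm5, Mcm6 and Cdc6 (origin licensing).
Cdc20, chr4:118437344-118437493, minus strand: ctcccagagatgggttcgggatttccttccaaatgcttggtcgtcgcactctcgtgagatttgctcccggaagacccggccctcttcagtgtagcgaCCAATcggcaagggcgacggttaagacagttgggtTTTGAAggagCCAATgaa
Ube2c, chr2:164769779-164769928, plus strand: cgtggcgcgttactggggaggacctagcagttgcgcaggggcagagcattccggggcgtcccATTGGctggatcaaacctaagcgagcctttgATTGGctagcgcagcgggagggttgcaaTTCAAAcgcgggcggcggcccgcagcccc
Cdk1, chr10:69352913-69353062, minus strand: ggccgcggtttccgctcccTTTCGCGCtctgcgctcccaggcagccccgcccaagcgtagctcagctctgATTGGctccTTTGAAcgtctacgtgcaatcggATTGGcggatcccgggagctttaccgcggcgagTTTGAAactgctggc
Ccnb1, chr13:100786487-100786636, minus strand: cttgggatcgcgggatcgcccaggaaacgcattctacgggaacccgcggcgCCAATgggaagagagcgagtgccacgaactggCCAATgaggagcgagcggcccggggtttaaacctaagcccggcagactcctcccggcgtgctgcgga
Mcm5, chr8:75109359-75109508, plus strand: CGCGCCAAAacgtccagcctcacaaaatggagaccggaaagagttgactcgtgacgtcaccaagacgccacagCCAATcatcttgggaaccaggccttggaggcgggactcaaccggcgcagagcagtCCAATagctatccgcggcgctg
Mcm6, chr1:128359706-128359855, minus strand: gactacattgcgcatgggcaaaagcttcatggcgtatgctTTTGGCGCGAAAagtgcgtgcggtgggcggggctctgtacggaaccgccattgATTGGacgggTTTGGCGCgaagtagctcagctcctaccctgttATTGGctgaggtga
Cdc6, chr11:98908001-98908150, plus strand: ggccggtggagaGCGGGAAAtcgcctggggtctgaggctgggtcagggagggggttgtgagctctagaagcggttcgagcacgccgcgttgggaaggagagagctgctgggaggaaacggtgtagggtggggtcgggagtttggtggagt

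RefSeq promoters of 300 bases, from 250 before to 50 after the start, were matched for 30 of the 39 genes. The CHR letters were present in 12 of 16 mitosis promoters (75%) and in 2 of 14 S phase promoters (14.3%), against 17.9% of all 32851 promoters of that length. The E2F letters were present in 1 of 16 mitosis promoters (6.25%), that of Cdk1, and in 5 of 14 S phase promoters (35.7%), those of Cdc6, Mcm3, Mcm5, Mcm6 and Mcm7, against 2.26% of all. CCAAT was present in 15 of 16 mitosis promoters (93.8%) and 9 of 14 S phase promoters (64.3%), against 37.4% of all. Matches of different motifs overlapped at 1 place. In the 150 bases before the start alone, the CHR letters were in 37.5% of mitosis promoters and 9.07% of all. The E2F letters were there in 3 of 14 S phase genes (21.4%), the Mcm5, Mcm6 and Cdc6 printed above, and in 1.24% of all promoters. A gene of either set counted once if any of its promoters matched, while all promoters were counted singly. Cdc20, Ube2c and Cdk1 above show the CHR beside CCAAT, whereas Ccnb1 shows CCAAT alone and Mcm6 shows repeated E2F letters. These matches describe the letters only, and binding was not measured.

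Libraries held 8385741 to 15558113 counts (median 12193825). The 39 genes together held 24897 to 89453 counts, or 0.198% to 0.637% of a library. Libraries were made from 3′ ends of polyadenylated RNA, so a gene's level carries no length term, and levels are given as CPM, counts relative to the scaled library size. Libraries of the same group all differed beyond counting noise, with a chi-square per gene of at least 10.0 in every pair. Of 12 melanocyte markers only 5 passed the filter: Mitf had a median of 45.4 CPM, while Tyrp1 had no count in 39 libraries, Tyr and Slc45a2 none in 38, and Mlana none in 35. The pigment genes that define melanocytes were therefore nearly absent from these tumours. Lung transcripts were present in 23 libraries and nearly absent from the other 16, and skeletal muscle markers summed to between 5.49 and 16158 CPM. In bulk RNA, fewer cells of a type and less RNA per cell cannot be told apart.

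Mitosis genes spanned a wide range of levels. Top2a, the topoisomerase that untangles sister chromatids, was the most abundant with a median of 1141 CPM over the 39 libraries, and Cdc25c, the phosphatase that activates CDK1, was the least with 7.50. Mki67, which coats mitotic chromosomes and is the usual proliferation marker, had a median of 252 CPM. Among the S phase genes, Mcm7 of the MCM helicase was highest with a median of 224 CPM and Cdc45, which completes the active helicase, lowest with 10.99. Low values clustered in few libraries. Replicates 3 and 4 of anti-PD-1 on day 5 and replicates 1 and 2 of the combination on day 5 held the lowest value of all 22 mitosis genes. Replicate 4 of anti-PD-1 on day 5 alone held the lowest value of 10 of the 17 S phase genes. No day 5 EPAT library and no day 2 combination library held the lowest or highest value of any of the 39 genes.

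Averaged over the 22 mitosis genes, log2 CPM on day 2 was 6.51 ± 0.22 with vehicle, 6.39 ± 0.21 with anti-PD-1, 6.49 ± 0.20 with EPAT and 6.12 ± 0.13 with the combination (SD, n = 5, or n = 4 for anti-PD-1). On day 5 it was 6.17 ± 0.31, 5.87 ± 0.55, 6.10 ± 0.28 and 5.77 ± 0.45 in the same order (SD, n = 5). The 17 S phase genes averaged 5.71 ± 0.17, 5.64 ± 0.16, 5.83 ± 0.16 and 5.59 ± 0.12 on day 2 and 5.64 ± 0.12, 5.38 ± 0.34, 5.51 ± 0.18 and 5.31 ± 0.23 on day 5 (SD, same n). For both sets the combination on day 5 was lowest and the spread was widest with anti-PD-1 on day 5, where replicates 3 and 4 lay far below the other 3 in the mitosis genes. EPAT on day 2 was highest in S phase genes, and vehicle and EPAT on day 2 were close to each other at the top in mitosis genes. Groups next to each other in the order of means differed by less than the larger of their SDs, in both sets.

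**Figure D1:**
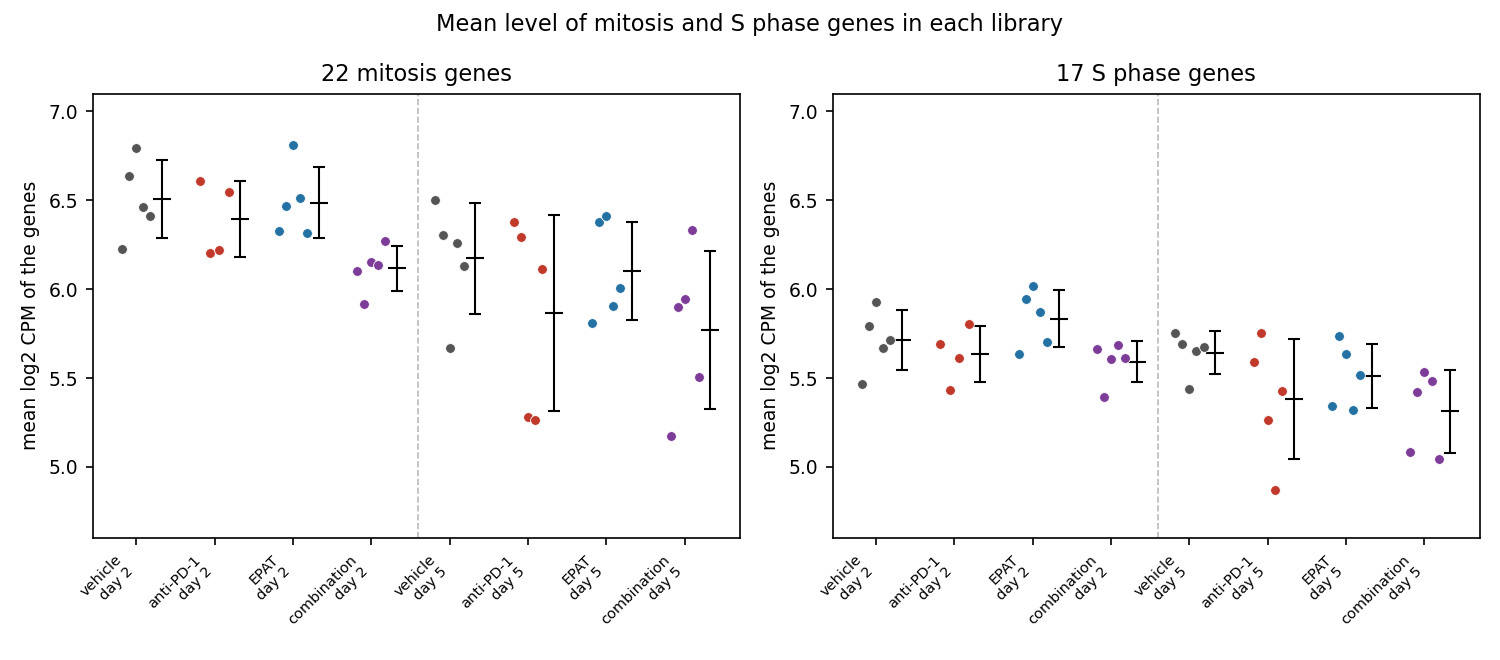
Mean log2 CPM of the 22 mitosis genes (left) and the 17 S phase genes (right) in each of the 39 libraries, by treatment and day, with the group mean and SD beside the points. The mitosis mean was 6.51 with vehicle on day 2 and 5.77 with the combination on day 5, and 2 anti-PD-1 libraries on day 5 lie far below the rest of their group.

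The balance of the sets also varied. The mitosis mean exceeded the S phase mean by 0.70 to 0.87 log2 units in the vehicle libraries on day 2 and by 0.44 to 0.66 in the combination libraries on day 2, ranges that did not overlap. With anti-PD-1 on day 2 the difference spanned 0.61 to 0.92 and with EPAT 0.52 to 0.79. Both of these ranges overlapped those of vehicle and of the combination. On day 5 the difference spanned 0.23 to 0.75 with vehicle, 0.02 to 0.79 with anti-PD-1, 0.46 to 0.77 with EPAT and 0.09 to 0.85 with the combination, and all 4 ranges overlapped. Across the 39 libraries the 2 means moved together, with Pearson r of 0.90 and Spearman rho of 0.86, and r of 0.88 without the 2 libraries farthest from the median. After subtraction of group means r was 0.87. Both means come from the same libraries and share their scaling, so these values are descriptions.

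On day 2 the mitosis genes lay near vehicle with anti-PD-1 or EPAT alone, whereas all 22 were lower with the combination. Every comparison with vehicle on a day shares the same vehicle libraries, and no gene of either set passed an adjusted p of 0.05 in any of the 14 pairwise comparisons by edgeR's quasi-likelihood test, adjusted by Benjamini-Hochberg across the table. On that test 0.0265% of all genes passed for the combination against vehicle and 0.0199% against anti-PD-1 on day 5, 0.0133% for the combination between days, and 0% elsewhere. Other tools called a few. For the combination on day 2 limma-voom called 1 member against vehicle (3.76% of all genes), 2 against anti-PD-1 (4.59%) and 1 against EPAT (0.995%). It called 19 members for EPAT between days (7.75% of all genes), and DESeq2 called 1 for anti-PD-1 between days (0.0666%). Neither called a member in the other pairwise comparisons. Against vehicle on day 2, the median log2 fold change of mitosis genes was -0.14 with anti-PD-1 and 0.02 with EPAT, and that of S phase genes -0.02 and 0.16. With anti-PD-1, 15 of 22 mitosis and 12 of 17 S phase genes were lower (52.3% of all genes were), none of the mitosis genes had an unadjusted p under 0.05 (7.12% of all genes did), and of the S phase genes Gins2 did at -0.60 ± 0.27 and Ccne1 at 0.46 ± 0.22. With EPAT, 10 mitosis genes and 2 S phase genes were lower, against 53.1% of all genes, and none of the 39 had an unadjusted p under 0.05 (6.23% of all genes did). Spc24 was at 0.24 ± 0.16, and Ccne1 and Mcm5, of the MCM helicase, at 0.40 ± 0.20 and 0.29 ± 0.17.

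With the combination on day 2, the median log2 fold change against vehicle was -0.41 for mitosis genes and -0.17 for S phase genes, against -0.022 for all genes. All 22 mitosis and 15 of 17 S phase genes were lower, against 53.3% of all genes. Of the mitosis genes 5 had an unadjusted p under 0.05 (3.89% of all genes did in that direction), and 5 had every combination library below every vehicle library (1.93% of all genes did): Mki67, Ccna2, Cdc25c, Cenpe and Cenpf. Mki67 measured 312, 383, 313, 261 and 302 CPM with vehicle and 217, 229, 201, 156 and 249.5 with the combination. Its highest combination library lay below its lowest vehicle library, with a log2 fold change of -0.58 ± 0.24 (edgeR adjusted p = 0.382). Cdc25c differed by -0.61 ± 0.22 (edgeR adjusted p = 0.297), the lowest value of the set. Ccne1, the cyclin that opens S phase with CDK2, went the other way, at 0.45 ± 0.20 (edgeR adjusted p = 0.446). Keratinocyte, adipocyte, and B and plasma cell markers were lower in this comparison (7 of 7, 8 of 8 and 5 of 5 tested). The keratinocyte sum spanned 8.66 to 163 CPM with vehicle and 5.46 to 6.16 with the combination. The adipocyte sum spanned 13.6 to 1571 CPM with vehicle and 22.6 to 119 with the combination. The B and plasma cell sum had a median of 13.3 CPM with vehicle and 8.95 with the combination, and replicate 1 of vehicle reached 401. Macrophage (12 of 12), skeletal muscle (12 of 12) and T cell markers (15 of 16) were higher, and the part of these tissues in the result was not tested.

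Measured against EPAT alone, the combination on day 2 had a median of -0.43 for mitosis and -0.23 for S phase genes, and 8 mitosis genes did not overlap, against 1.95% of all genes. These were Top2a, Cdc20, Cdc25c, Plk1, Aurka, Bub1, Cenpe and Cenpf. Cdc20, the activator that starts anaphase, measured 173, 134, 203, 140.3 and 121 CPM with EPAT and 103, 76.1, 92.3, 98.5 and 112 with the combination, a log2 fold change of -0.68 ± 0.28 (edgeR adjusted p = 0.633). All 5 combination libraries were thus under all 5 EPAT libraries. Against anti-PD-1 alone the medians were -0.28 and -0.04, and 3 mitosis genes did not overlap (Mki67, Cdc20 and Cdc25c), against 0.756% of all genes. The EPAT by anti-PD-1 interaction on day 2 had medians of -0.34 and -0.21, with no member under an unadjusted p of 0.05, against 7.28% of all genes. After adjustment edgeR called no gene of the table for it, DESeq2 2 and limma-voom 42, none of them a member. So the larger value with both agents than with either was not shown to exceed their sum.

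On day 5 all 3 treatments had most members below vehicle. Median log2 fold changes of mitosis and S phase genes were -0.23 and -0.24 with anti-PD-1, -0.09 and -0.19 with EPAT, and -0.39 and -0.31 with the combination. With anti-PD-1, 21 of 22 mitosis and 16 of 17 S phase genes were lower, against 47.6% of all genes, and 3 of each had an unadjusted p under 0.05, against 2.57% in that direction. Spc24, a subunit of the NDC80 complex that ties kinetochores to microtubules, differed most, by -0.68 ± 0.17 (edgeR adjusted p = 0.645). Mcm3 alone had no overlap between the groups, against 0.192% of all genes. The mitosis mean was 6.38, 6.29 and 6.11 in replicates 1, 2 and 5 of anti-PD-1, within the vehicle range of 5.67 to 6.50. Only replicates 3 and 4 lay below that range, at 5.28 and 5.27. The S phase mean was 5.59, 5.75 and 5.43 in replicates 1, 2 and 5 and 5.26 and 4.87 in replicates 3 and 4, against 5.44 to 5.75 with vehicle. By fold change, T cell (16 of 16), fibroblast (12 of 12), macrophage (12 of 12) and skeletal muscle markers (12 of 12) were higher with anti-PD-1. Adipocyte (8 of 8) and lung markers (6 of 6) were lower. Median sums with vehicle and anti-PD-1 were 158 and 224 CPM for T cell and 7137 and 8590 for fibroblast markers. They went the other way for macrophage (4234 and 3975) and skeletal muscle markers (1192 and 366). Replicates 3 and 4 of anti-PD-1, the libraries low in mitosis genes, had the highest macrophage means of their group, 8.80 and 9.16 log2 CPM. They also had its highest fibroblast (9.43 and 9.05), T cell (4.45 and 5.13) and endothelial means (4.92 and 4.99). The same held for skeletal muscle, melanocyte, adipocyte, and B and plasma cell means, but not for keratinocyte, lung or erythroid means. The part of these tissues was not tested. With EPAT, 17 and 15 were lower, against 52.1%, and none had an unadjusted p under 0.05 (1.70% of all genes did). With the combination, 22 and 15 were lower, against 51.0%, and 5 mitosis and 8 S phase genes had an unadjusted p under 0.05, against 9.28% of all genes in that direction. Tyms, the enzyme that makes thymidylate for DNA, differed by -0.45 ± 0.16 (edgeR adjusted p = 0.195), Ccnb1 by -0.62 ± 0.23 (adjusted p = 0.213) and Mcm6 by -0.46 ± 0.17 (adjusted p = 0.217). T cell (16 of 16 tested), fibroblast (11 of 12) and macrophage markers (11 of 12) were higher with the combination, adipocyte markers lower (8 of 8), and their part was not tested. Against anti-PD-1 alone the combination differed little on day 5, with medians of -0.09 and -0.03 and no member under an unadjusted p of 0.05 (6.31% of all genes were), and against EPAT alone the medians were -0.26 and -0.17, with only Mcm6 under it (12.7% of all genes were).

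**Figure D2:**
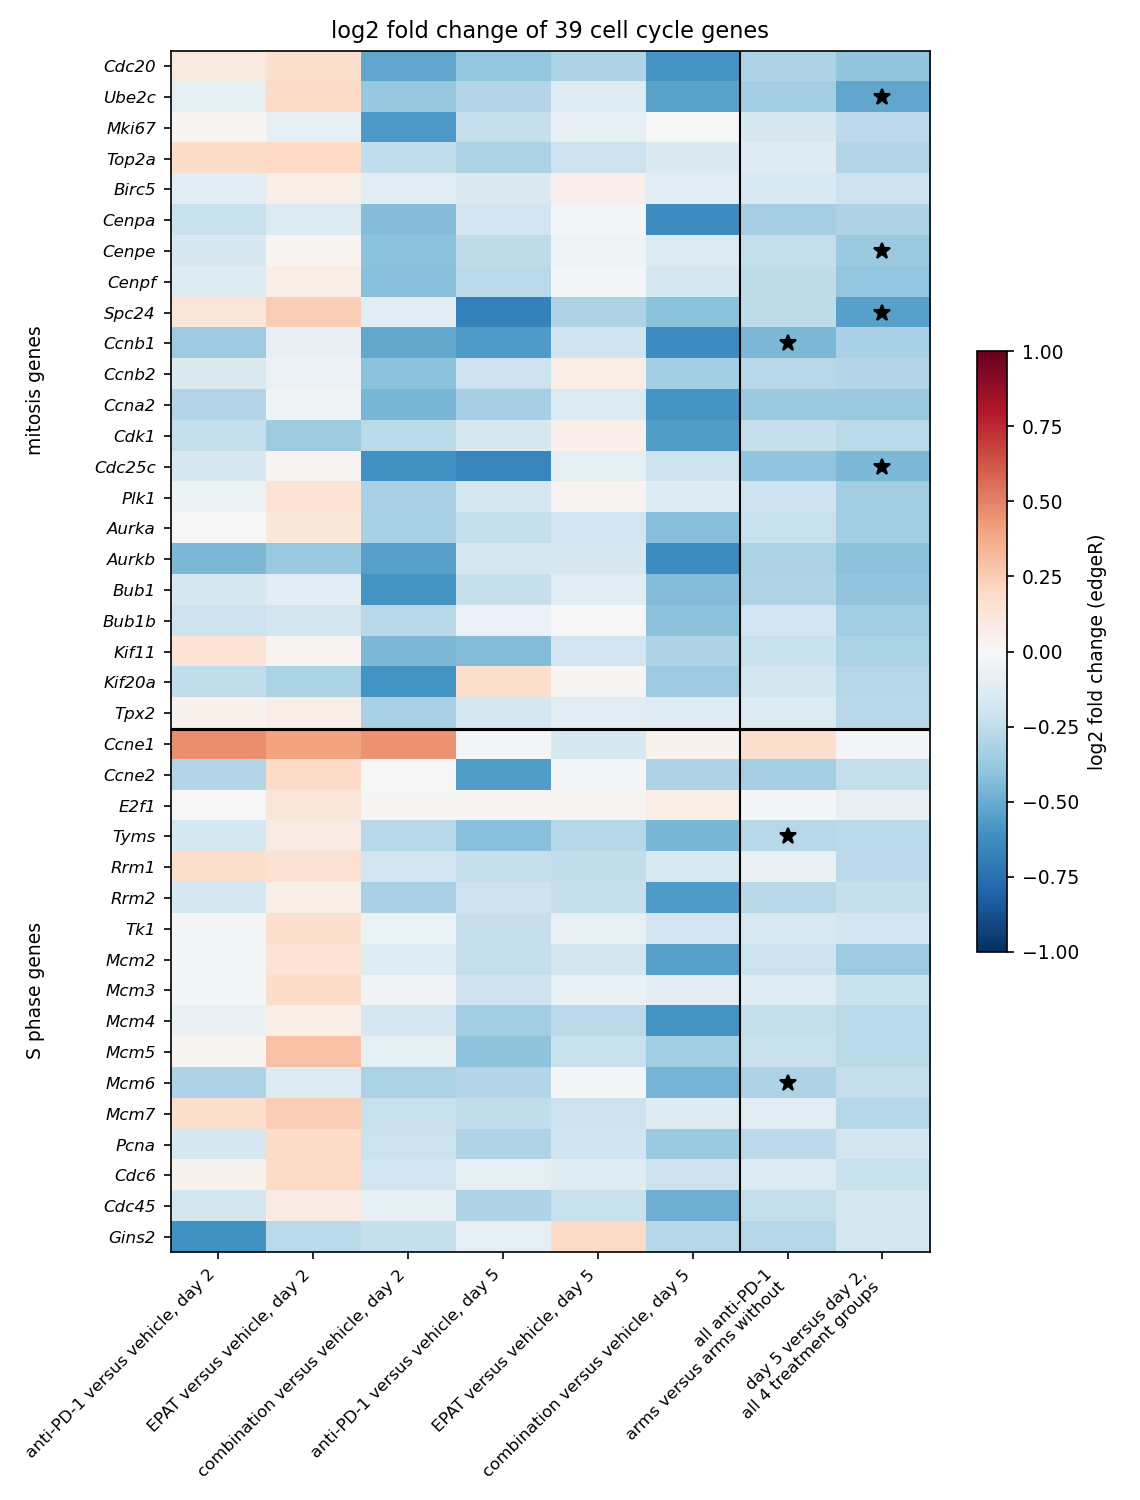
log2 fold change of each of the 39 genes (rows, grouped by set and role) in 6 comparisons with vehicle and 2 averaged comparisons (columns), from edgeR. Stars mark an adjusted p under 0.05: Ccnb1, Mcm6 and Tyms for the anti-PD-1 arms, and Spc24, Ube2c, Cenpe and Cdc25c for day 5 against day 2. Ccne1 and E2f1 are the S phase genes that stay near or above 0 in most columns.

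Averaged over both days and over tumours with and without EPAT, tumours given anti-PD-1 had lower mitosis and S phase transcripts. This comparison sets 19 anti-PD-1 libraries against 20 without it. All 22 mitosis genes were lower, with a median log2 fold change of -0.25, and 16 of 17 S phase genes were, with a median of -0.22, while the median of all genes was -0.0037 and 50.8% of them were lower. An unadjusted p under 0.05 was reached in the lower direction by 11 mitosis and 8 S phase genes, against 10.0% of all genes. After adjustment 1 mitosis gene, Ccnb1, and 2 S phase genes, Mcm6 and Tyms, fell, where 0.644% of all genes were called lower and 2.56% in either direction. DESeq2 called 5 members (7.45% of all genes) and limma-voom 8 (8.37%). By role, the cyclins, Cdk1 and Cdc25c had a median of -0.37, the anaphase genes Cdc20 and Ube2c -0.33, the centromere and chromosome genes -0.24, the mitotic kinases -0.23 and the spindle genes Kif11, Kif20a and Tpx2 -0.19. Among S phase genes the origin licensing and firing genes had a median of -0.23 and the nucleotide synthesis genes -0.21.

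Ccnb1 encodes cyclin B1, the partner that switches on CDK1 at entry to mitosis, and lies at chr13:100778650-100786570 on the minus strand (GRCm38). On day 2 Ccnb1 measured 68.1, 84.7, 124, 95.2 and 86.2 CPM in the vehicle libraries, 76.7, 58.0, 75.4 and 74.8 with anti-PD-1, 58.3, 81.5, 112, 98.4 and 83.2 with EPAT and 68.6, 51.0, 68.1, 72.6 and 60.8 with the combination. On day 5 Ccnb1 measured 74.9, 93.1, 46.3, 83.6 and 96.5 CPM in the vehicle libraries, 70.7, 69.7, 36.04, 28.04 and 62.3 with anti-PD-1, 48.0, 87.3, 74.1, 67.7 and 67.5 with EPAT and 28.5, 59.4, 59.4, 65.8 and 43.0 with the combination. All 19 anti-PD-1 libraries lay below the mean of the matched group without it, though the ranges overlapped in each pair. Its log2 fold change was -0.45 ± 0.12 (edgeR adjusted p = 0.0375). The call was lost when any 1 of 16 libraries was left out, at an adjusted p of up to 0.0705 without replicate 3 of anti-PD-1 on day 5.

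Mcm6 encodes a subunit of the MCM helicase and lies at chr1:128331590-128359664 on the minus strand. On day 2 Mcm6 measured 139.9, 176, 175, 157 and 140.0 CPM in the vehicle libraries, 139.8, 132, 104 and 132 with anti-PD-1, 109.8, 155, 156, 152 and 146 with EPAT and 135, 106, 145, 137 and 108 with the combination. On day 5 Mcm6 measured 128, 136, 105, 150.5 and 151 CPM in the vehicle libraries, 129, 152, 88.3, 55.4 and 124 with anti-PD-1, 109, 148, 147, 134 and 127 with EPAT and 68.8, 108, 95.4, 110.4 and 105 with the combination. Of the 19 anti-PD-1 libraries 17 were below the mean of the matched group, and replicate 4 of anti-PD-1 on day 5 was the lowest of all 39. For Mcm6 the log2 fold change was -0.31 ± 0.09 (edgeR adjusted p = 0.0497), just inside the threshold.

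Tyms lies at chr5:30058202-30073617 on the minus strand. On day 2 Tyms measured 43.4, 50.7, 55.9, 48.7 and 49.2 CPM in the vehicle libraries, 41.2, 38.5, 46.4 and 49.0 with anti-PD-1, 40.2, 56.5, 61.7, 52.4 and 50.9 with EPAT and 40.8, 37.0, 46.6, 45.1 and 35.5 with the combination. On day 5 Tyms measured 53.1, 40.8, 36.7, 53.0 and 52.2 CPM in the vehicle libraries, 40.6, 42.5, 38.2, 19.2 and 35.9 with anti-PD-1, 29.9, 49.7, 37.8, 37.3 and 38.9 with EPAT and 31.9, 38.2, 39.3, 34.1 and 28.6 with the combination. Of the 19 anti-PD-1 libraries 18 were below the mean of the matched group, and the same day 5 library was again the lowest. For Tyms the log2 fold change was -0.28 ± 0.08 (edgeR adjusted p = 0.0497). The call was lost in 31 of 39 fits with 1 library left out for Tyms and in 28 of 39 for Mcm6. Cdc25c, at -0.39 ± 0.11, stood just outside the threshold (edgeR adjusted p = 0.0515).

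Of the other cyclins, Ccna2, cyclin A2, gave -0.37 ± 0.12 (edgeR adjusted p = 0.0729) and Pcna, the sliding clamp of DNA polymerases, -0.26 ± 0.09 (edgeR adjusted p = 0.0801). Ccne1 was the 1 member above 0, at 0.17, and E2f1, the factor that drives many S phase genes, was at -0.01. Within the 23 libraries with lung transcripts, the difference in mean log2 CPM between arms was -0.23 for mitosis genes and -0.10 for S phase genes. The 16 without them could not give this value, since no anti-PD-1 library on day 2 was among them. With limma-voom the median of mitosis genes was -0.15.

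Other cell cycle genes, from 3 lists, were mostly lower as well in the anti-PD-1 arms. Over all genes 50.8% were lower, 0.644% were called lower and 2.56% were called in either direction. Of 55 other mitosis genes 54 were lower, with a median of -0.25, and 2 fell after adjustment: Ndc80 at -0.35 ± 0.09 (edgeR adjusted p = 0.0326), which forms a complex with Spc24, and Cdca3 at -0.33 ± 0.09 (edgeR adjusted p = 0.0401). Of 45 other S phase genes 42 were lower, with a median of -0.19, and Dscc1 fell by 0.49 on the log2 scale (edgeR adjusted p = 0.0432). Of 36 regulators 20 were lower and none was called. Among them Foxm1, which drives many mitosis genes, gave -0.33 ± 0.10 (edgeR adjusted p = 0.0551) and Cdkn1a, the p21 inhibitor, 0.19 ± 0.07 (edgeR adjusted p = 0.115). Several marker lists had the opposite sign: 16 of 16 tested T cell, 12 of 12 macrophage, 10 of 10 endothelial, 12 of 12 skeletal muscle, 5 of 5 melanocyte, 5 of 5 erythroid, 6 of 7 keratinocyte and 9 of 12 fibroblast markers were higher. Adipocyte (7 of 8, median -0.43), B and plasma cell (5 of 5, median -0.61) and lung markers (4 of 6) were lower. Replicate 1 of vehicle on day 2 led in B and plasma cell markers, with a sum of 401 CPM, and in adipocyte markers. Median B and plasma cell sums on day 2 were 13.3 CPM with vehicle, 13.9 with anti-PD-1, 12.9 with EPAT and 8.95 with the combination. On day 5 they were 14.6, 18.2, 16.6 and 19.8 CPM in the same order. Among the markers that rose after adjustment were Cd2 of T cells and the macrophage gene Mrc1. Skeletal muscle sums were mixed. On day 2 their medians were 13.9 CPM with vehicle, 1916 with anti-PD-1, 1131 with EPAT and 524 with the combination. On day 5 the medians were 1192, 366, 574 and 785 CPM in the same order. Keratinocyte counts were few, with none for Krt5 in 28 libraries. Their median sums on day 2 were 17.9 CPM with vehicle, 5.01 with anti-PD-1, 5.69 with EPAT and 5.59 with the combination. On day 5 they were 4.69, 6.76, 5.31 and 5.04 CPM in the same order, and the highest combination library reached 125 CPM. Of the tested melanocyte markers, Sox10 and S100b had medians of 0.125 and 0.834 CPM. T cell markers summed to 89.3 to 286 CPM with vehicle, 172 to 285 CPM with anti-PD-1 and 23.4 to 385 CPM with the combination on day 2. On day 5 they summed to 126 to 291 CPM with vehicle, 116 to 781 with anti-PD-1 and 210.1 to 616 with the combination. Macrophage markers on day 5 summed to 3241 to 6891 CPM with vehicle, 2762 to 15653 with anti-PD-1 and 4972 to 11818 with the combination. The part of cell content in the result was not tested.

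Between days all 22 mitosis genes and all 17 S phase genes were lower on average, with the larger differences in mitosis genes. Within each treatment, the median log2 fold change of day 5 against day 2 was -0.32 for mitosis and -0.07 for S phase genes with vehicle, -0.45 and -0.25 with anti-PD-1, -0.40 and -0.34 with EPAT and -0.26 and -0.21 with the combination. At an unadjusted p under 0.05 in the lower direction there were 1 mitosis and no S phase genes with vehicle (2.30% of all genes), 11 and 3 with anti-PD-1 (2.22%), 10 and 7 with EPAT (3.56%) and 2 and 2 with the combination (6.89%). None passed edgeR's adjusted threshold within a treatment. The smallest adjusted p was that of Spc24 with anti-PD-1, at -0.92 ± 0.18 (edgeR adjusted p = 0.105).

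Averaged over the 4 treatments, a comparison chosen after the data were seen, 20 libraries of day 5 were set against 19 of day 2. All 22 mitosis genes were lower, with a median of -0.34, and all 17 S phase genes, with a median of -0.23, against a median of 0.0028 for all genes, of which 49.2% were lower. In the lower direction 19 mitosis and 11 S phase genes had an unadjusted p under 0.05, against 6.70% of all genes. Spc24, Ube2c, Cenpe and Cdc25c fell after adjustment and no S phase gene did, where 0.571% of all genes were called lower and 2.20% in either direction. DESeq2 called 10 members (4.08% of all genes) and limma-voom 14 (3.09%). Mcm3 was the S phase gene with the smallest p, at -0.22 ± 0.06 (edgeR adjusted p = 0.0566). Whether the mitosis genes fell more than the S phase genes was not tested.

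Spc24 showed the clearest change of the 39. It lies at chr9:21755442-21760303 on the minus strand. On day 2 Spc24 measured 28.9, 30.1, 40.2, 29.5 and 31.2 CPM in the vehicle libraries, 38.6, 22.4, 41.0 and 36.8 with anti-PD-1, 32.5, 41.4, 44.1, 42.2 and 28.97 with EPAT and 25.96, 28.1, 36.4, 31.1 and 27.2 with the combination. On day 5 Spc24 measured 33.1, 29.3, 22.2, 32.1 and 29.6 CPM in the vehicle libraries, 22.7, 20.4, 17.1, 13.4 and 18.1 with anti-PD-1, 19.3, 23.9, 26.8, 21.7 and 26.4 with EPAT and 15.2, 22.9, 28.3, 22.4 and 21.1 with the combination. Day 5 libraries were below the day 2 mean of their treatment in 18 of 20 cases. The 2 groups overlapped little with anti-PD-1, where 1 day 2 library reached down to the day 5 values, and not at all with EPAT (1.01% of all genes had no overlap, day 5 lower, with EPAT). The vehicle groups overlapped widely. The log2 fold change was -0.54 ± 0.08, the 4th smallest p of all 15070 genes (edgeR adjusted p = 0.000723), and it passed without any 1 of the 39 libraries, at an adjusted p of at most 0.00247. Of all members Spc24 also had the largest share of its variance between groups, 66.6%. The anti-PD-1 effect on Spc24 on day 5 minus that on day 2 was -0.80 ± 0.24, which did not pass (edgeR adjusted p = 1).

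Ube2c, the enzyme that carries ubiquitin to the anaphase-promoting complex, lies at chr2:164769898-164778822 on the plus strand. On day 2 Ube2c measured 176, 169, 235, 153 and 149.9 CPM in the vehicle libraries, 184, 124, 148 and 205 with anti-PD-1, 124, 235, 251, 221 and 175 with EPAT and 137, 111, 153, 149 and 129.6 with the combination. On day 5 Ube2c measured 185, 124, 92.7, 185 and 104 CPM in the vehicle libraries, 169.7, 140.4, 62.2, 67.6 and 126 with anti-PD-1, 87.8, 166, 149, 119 and 114 with EPAT and 50.4, 105, 106, 126 and 89.6 with the combination. Day 5 libraries were below the matched day 2 mean in 17 of 20 cases, with overlap within each treatment. For Ube2c the log2 fold change was -0.52 ± 0.13 (edgeR adjusted p = 0.0257), and the call was lost without replicate 3 of vehicle on day 5 (adjusted p = 0.0505) or replicate 4 of anti-PD-1 on day 2 (adjusted p = 0.0521). Ube2c overlaps Tnnc2, a muscle troponin gene whose level ran from 0 to 1360 CPM, and since the strand setting of the counting is not given in the sources used here its counts are uncertain. The 2 genes' log2 CPM had r of -0.185 over 39 libraries.

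Cenpe, a kinesin that moves chromosomes to the spindle equator, lies at chr3:135212537-135273611 on the plus strand. On day 2 Cenpe measured 286, 324, 357, 287 and 317 CPM in the vehicle libraries, 323, 220.1, 277 and 303 with anti-PD-1, 287, 309.8, 390.3, 301 and 304 with EPAT and 235, 226, 247, 239 and 234 with the combination. On day 5 Cenpe measured 314, 225, 167, 287 and 197 CPM in the vehicle libraries, 276, 252, 121, 121 and 227 with anti-PD-1, 214, 284, 257, 203 and 206 with EPAT and 205, 234, 206, 259 and 176 with the combination. Day 5 was below the matched day 2 mean in 19 of 20 libraries, and with EPAT the days did not overlap. The log2 fold change was -0.37 ± 0.09 (edgeR adjusted p = 0.0259), lost without replicate 3 of vehicle on day 5 (adjusted p = 0.0505).

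Cdc25c was the least abundant member. On day 2 Cdc25c measured 8.06, 12.9, 11.2, 8.15 and 8.57 CPM in the vehicle libraries, 7.50, 9.02, 8.32 and 9.88 with anti-PD-1, 9.02, 8.31, 10.9, 10.3 and 11.05 with EPAT and 5.91, 5.23, 7.07, 6.41 and 7.30 with the combination. On day 5 Cdc25c measured 9.54, 6.49, 4.02, 10.6 and 6.14 CPM in the vehicle libraries, 5.82, 5.46, 3.88, 2.67 and 5.67 with anti-PD-1, 4.77, 8.63, 7.66, 6.30 and 7.41 with EPAT and 6.24, 7.88, 4.68, 8.26 and 4.68 with the combination. The day 5 libraries were below the matched day 2 mean in 17 of 20 cases, and the anti-PD-1 libraries of the 2 days did not overlap (0.425% of all genes). The log2 fold change was -0.45 ± 0.11 (edgeR adjusted p = 0.0294), lost without replicate 3 of vehicle on day 5 (adjusted p = 0.0505), replicate 3 of anti-PD-1 on day 5 (0.0578), replicate 4 of anti-PD-1 on day 2 (0.0542) or replicate 1 of EPAT on day 5 (0.0516).

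**Figure D3:**
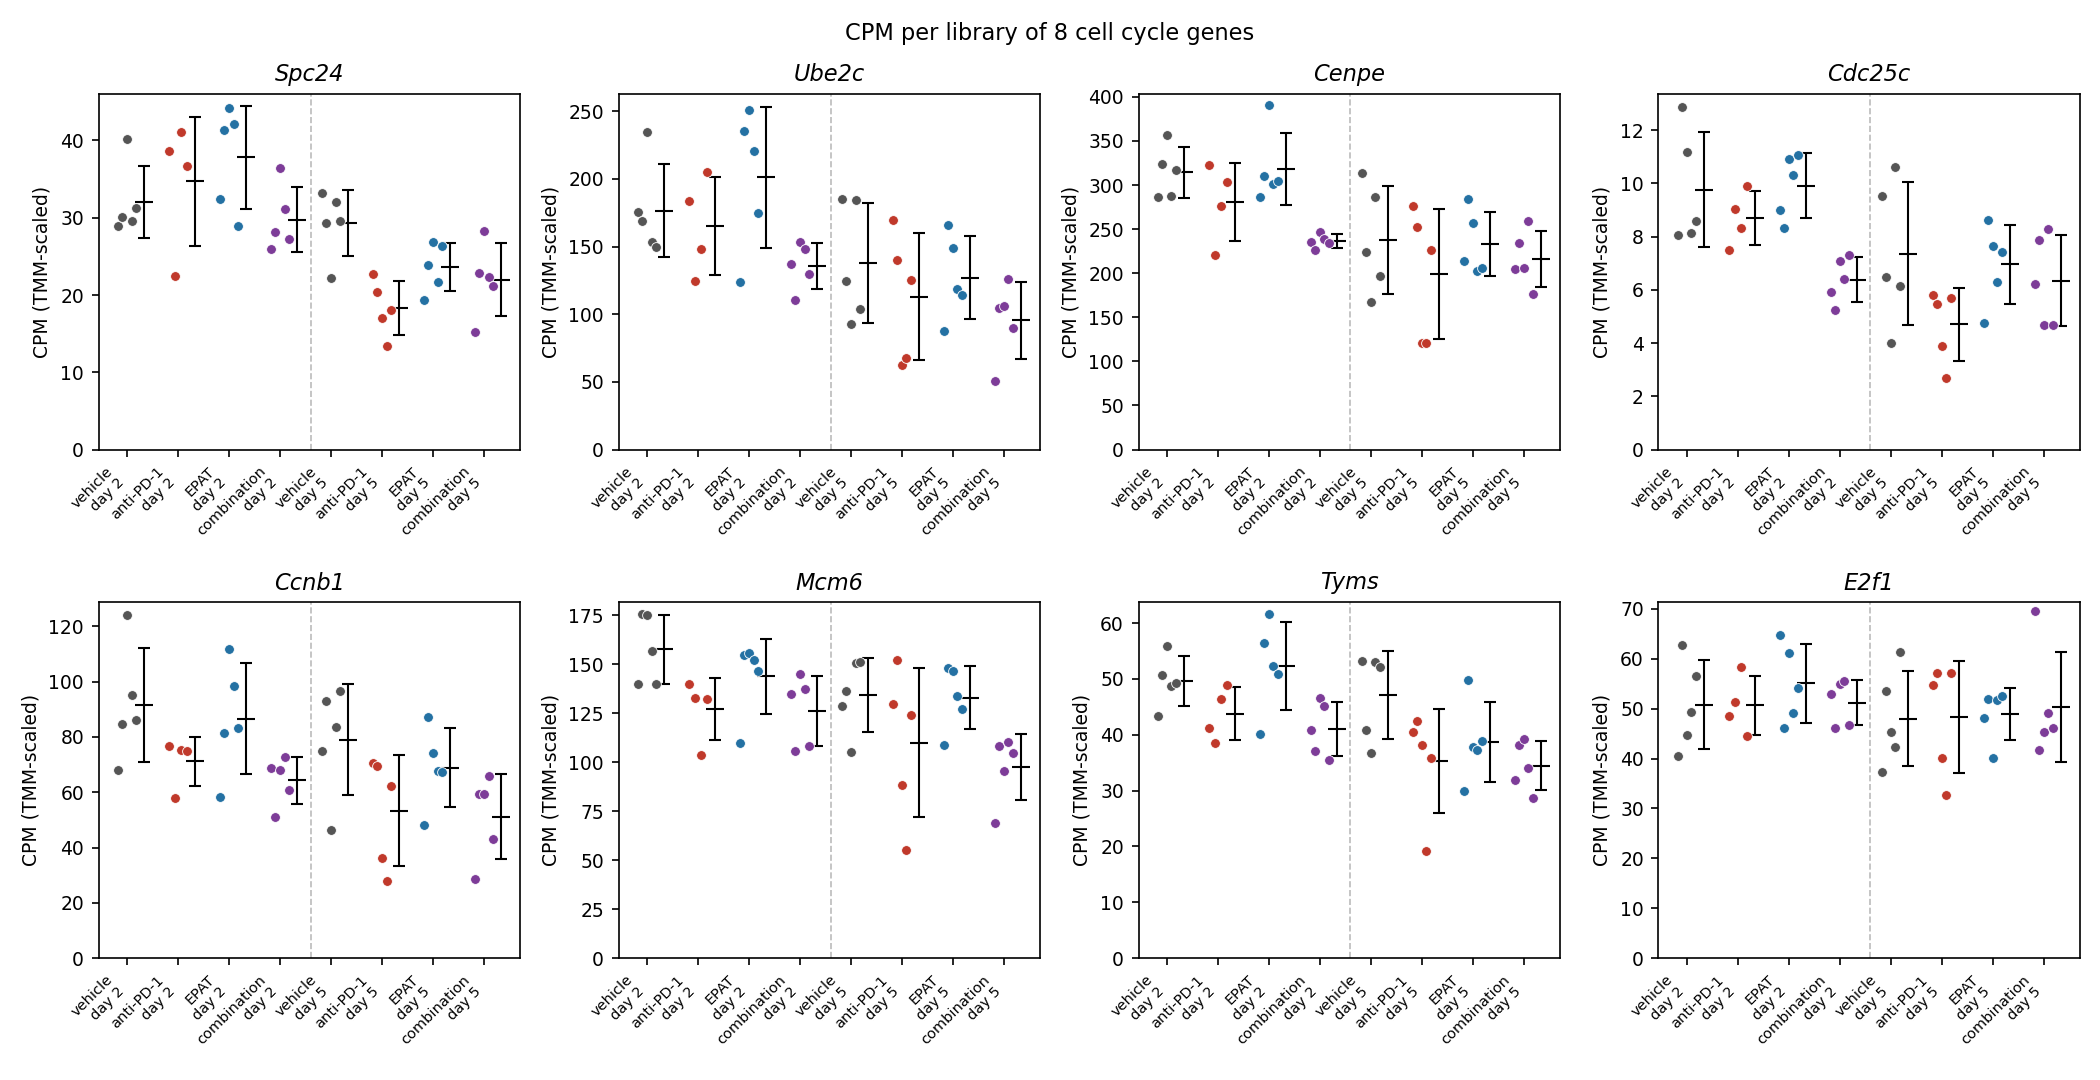
CPM of 8 cell cycle genes in each library, by treatment and day (dashed line between days), with group mean and SD beside the points and the vertical axis from 0. Spc24 on day 5 is lowest with anti-PD-1, at 13.4 to 22.7 CPM, and E2f1 shows no such step between groups.

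The values of the remaining members follow, each as its log2 fold change in the anti-PD-1 arms and then between days, and none passed edgeR's adjusted threshold in either. Of the cyclin and kinase core, Ccnb2, another B-type cyclin, was at -0.28 and -0.29, Ccna2 at -0.37 and -0.37 and Cdk1 at -0.23 and -0.27. Cdc20 was at -0.31 and -0.39. These 4 genes were lower in both comparisons.

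Among the mitotic kinases, Plk1, a kinase of centrosomes and kinetochores, was at -0.21 and -0.34. Aurka, the spindle pole kinase, was at -0.23 and -0.34 and Aurkb, the kinase of the chromosomal passenger complex, at -0.32 and -0.41. The spindle checkpoint kinase genes Bub1 and Bub1b were at -0.30 and -0.40 and at -0.19 and -0.34. All 5 kinases were lower in both. Birc5, survivin, which works with Aurkb, was at -0.15 and -0.22, Top2a at -0.13 and -0.29 and Mki67 at -0.16 and -0.26. At centromeres and kinetochores, Cenpa was at -0.33 and -0.31 and Cenpf at -0.26 and -0.39. The spindle genes Kif11, a motor that pushes the poles apart, Kif20a, a motor of cytokinesis, and Tpx2, which activates Aurka, were at -0.22 and -0.32, at -0.19 and -0.29 and at -0.14 and -0.28.

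Of the S phase genes, the licensing factor Cdc6 was at -0.13 and -0.23. The other MCM genes were at -0.22 and -0.36 for Mcm2, -0.12 and -0.22 for Mcm3, -0.24 and -0.27 for Mcm4, -0.22 and -0.27 for Mcm5 and -0.12 and -0.29 for Mcm7. Cdc45 and Gins2, which join the MCM ring in the active helicase, were at -0.24 and -0.18 and at -0.28 and -0.18. Pcna was at -0.26 and -0.19. All 10 licensing and firing genes were thus lower in both. For nucleotide synthesis, the ribonucleotide reductase genes Rrm1 and Rrm2 were at -0.077 and -0.26 and at -0.28 and -0.23, and Tk1, thymidine kinase, at -0.15 and -0.19. The cyclin E genes parted: Ccne2 was at -0.34 and -0.24, Ccne1 at 0.17 and -0.016, and E2f1 was at -0.014 and -0.086. Reads of Ccna2, Cdc20, Cdc25c, Kif20a, Ccne2, Mcm7, Cdc45, Gins2 and Tk1, like those of Ube2c, could be shared with an overlapping gene that was also tested.

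Fibroblast markers were higher on day 5 (12 of 12, 5 of them after adjustment), and so were endothelial (10 of 10, 2 after adjustment) and skeletal muscle markers (12 of 12). Adipocyte (8 of 8) and lung markers (6 of 6) were lower. The fibroblast sum had a median of 6735 CPM with vehicle, 7866 with anti-PD-1, 7092 with EPAT and 6271 with the combination on day 2. On day 5 the medians were 7137, 8590, 13695 and 14733 CPM in the same order, and anti-PD-1 spanned 4720 to 37093 CPM. Among other cell cycle genes 54 of 55 mitosis and 45 of 45 S phase genes were lower on day 5, with 5 and 2 called, and Foxm1 fell by 0.36 on the log2 scale (edgeR adjusted p = 0.0402). Over all genes 49.2% were lower, 0.571% were called lower and 2.20% were called in either direction. Within the libraries with lung transcripts the difference between days was -0.28 for mitosis and -0.16 for S phase genes in mean log2 CPM. Without the 3 libraries that led in fibroblast, keratinocyte or B cell markers (replicate 3 of anti-PD-1 on day 5 and replicates 1 and 2 of vehicle on day 2), only Spc24 was called for the days and no member for the anti-PD-1 arms. Without the 3 libraries numbered with the other day, Spc24, Ube2c and Cenpe were called for the days (edgeR adjusted p = 0.00106, 0.0408 and 0.0408) and Cdc25c was not (0.0507). For the anti-PD-1 arms Ccnb1, Mcm6, Tyms and Cdc25c were then called (edgeR adjusted p = 0.0273, 0.0418, 0.0414 and 0.0408). The part of stromal content in either result was not tested.

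EPAT showed no call of its own. Over all EPAT arms the median was -0.13 for mitosis and -0.06 for S phase genes, with 21 of 22 and 10 of 17 lower (54.6% of all genes were). By edgeR no gene of the table passed and no member had an unadjusted p under 0.05 (5.64% of all genes did). DESeq2 called 4 genes and limma-voom 697, none of them a member. The EPAT by anti-PD-1 interaction on day 5 gave no call either, with Spc24 the 1 member under an unadjusted p of 0.05 at 0.58 ± 0.24 (3.10% of all genes were). For the change of each effect from day 2 to day 5, Spc24 was under it for anti-PD-1 (3.34% of all genes), Spc24 and Mcm5 for EPAT (5.22%) and no member for the combination (3.50%), and no tool called a member.

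Not all S phase genes moved with their set. After subtraction of group means, Pearson's r of a gene with the mean of the rest of its set over 39 libraries was 0.13 for E2f1, 0.24 for Gins2, 0.31 for Ccne1 and 0.32 for Ccne2, while it was 0.82 for Mcm2 and Cdc45 and 0.80 for Tyms. E2f1 also had the smallest share of variance between groups, 7.99%. Among the mitosis genes r ran from 0.46 for Plk1 and 0.47 for Birc5 to 0.90 for Bub1. Ccnb1 and Ccna2 followed the S phase mean as closely as their own, at 0.86 and 0.87 against 0.86 and 0.88. Birc5 and Spc24 followed it more closely, at 0.61 and 0.74 against 0.47 and 0.67. Mcm2 likewise had a larger r with the mitosis mean, 0.90, than with its own set, as did Mcm4, Mcm6, Mcm7, Rrm1 and Cdc6. Cenpa, the centromere histone, had the widest spread within groups, an SD of 0.66 on the log2 scale, and replicate 1 of the combination on day 5 measured 4.09 CPM. These correlations share library and scaling and are descriptions.

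**Figure D4:**
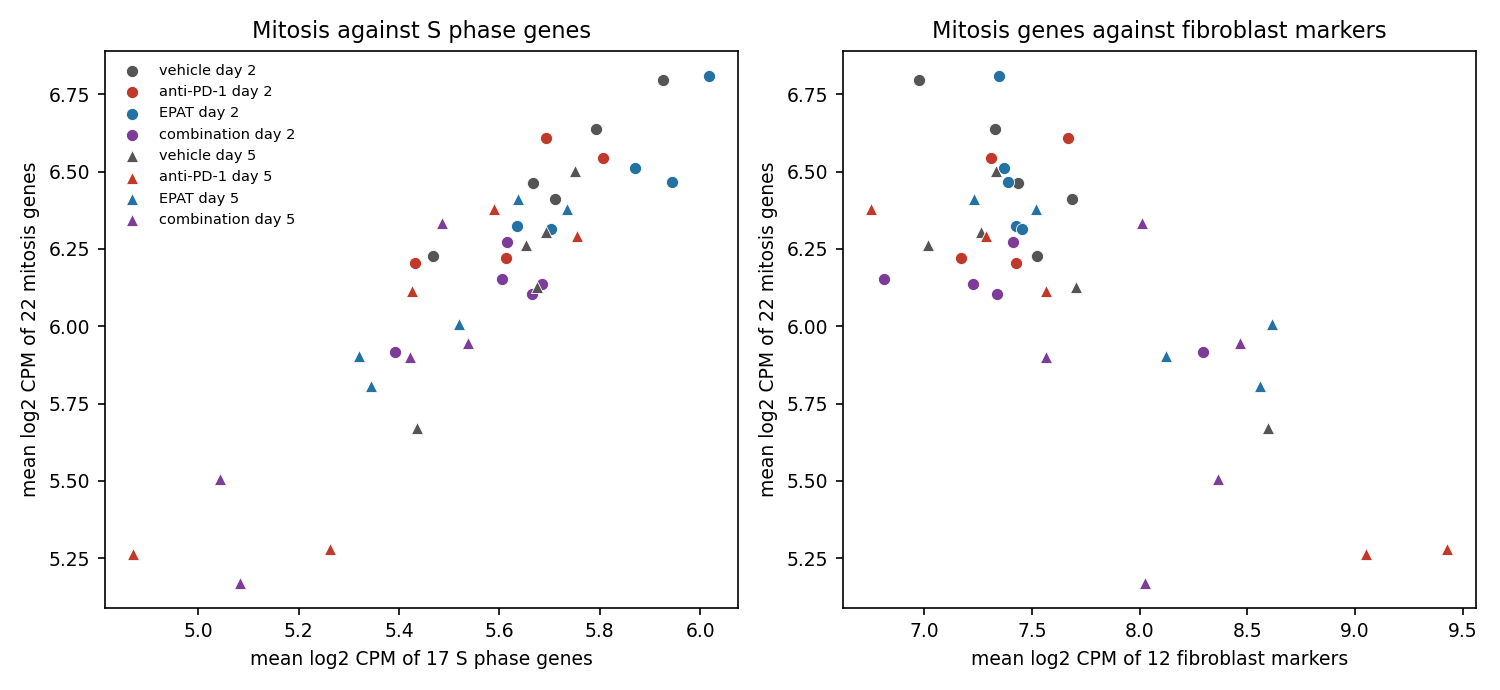
Mean log2 CPM of the 22 mitosis genes in each of 39 libraries against that of the 17 S phase genes (left) and of 12 fibroblast markers (right), with circles for day 2, triangles for day 5 and colours for treatment. Mitosis and S phase means rise together (r = 0.90), and libraries with high fibroblast markers have low mitosis means (r = -0.75).

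Across libraries within groups, the genes most like the mitosis mean among 9234 with a mean log2 CPM of at least 3 were Kif23 (r = 0.95), Fbxo5, Prc1, Tacc3, Ect2, Nusap1 and Ccnd1 (r = 0.89). Kif23, Prc1 and Ect2 act in the central spindle and cytokinesis, and Ccnd1 is cyclin D1, which had a median of 1615 CPM. The genes with the most negative r were Pdpn (-0.83), Col4a2, Clmp, Aebp1, Mmp2 and Bgn (-0.81), most of them matrix or mesenchymal genes. For the S phase mean, Tacc3 (0.88), Kif23, Prim1 and Dbf4 were among the leading genes, and Scara3 (-0.79) and Nbl1 were at the other end. The median r over the 9234 genes was 0.08 for the mitosis and 0.07 for the S phase mean. Group-centred r of the mitosis mean was -0.73 with fibroblast, -0.68 with endothelial, -0.58 with melanocyte, -0.55 with macrophage, -0.47 with adipocyte and -0.26 with T cell markers. That of the S phase mean was -0.62, -0.61, -0.58, -0.41, -0.33 and -0.16 in the same order. Without the 2 libraries farthest from the median, the S phase values were -0.14 with macrophage and 0.095 with T cell markers, so both rest on those libraries. The mitosis mean had r of 0.41 with the log2 share of mitochondrial transcripts, 0.10 with log2 total counts and 0.29 with the log2 share of Gm42418. The S phase mean had 0.17, 0.089 and 0.052. Gm42418 is a gene lying over ribosomal RNA and taking 1.90% to 12.9% of counts.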

How the data were processed

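Tumour RNA was sequenced as 3′ end tags in 39 libraries. The authors deposited counts by Ensembl identifier, and log2 CPM values that equal log2(count + 0.5) plus 1 constant per library within 5e-09, as the values show. Per the submitters' processing notes the tools included STAR, featureCounts and limma, and the builds were mm10 and GRCm38. No tool version, annotation release or strand setting is stated in those sources. Symbols came from GENCODE tables (37607 of 39179 identifiers matched), promoters from RefSeq GRCm38.p6.

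Counts were tested with edgeR 4.0.16 in R 4.3.3: filterByExpr (minimum count 10, total 15) left 15070 genes, with TMM scaling and a robust quasi-likelihood fit of 8 group means to 39 libraries (31 residual degrees of freedom, common biological coefficient of variation 0.323). P-values were 2-sided and adjusted by Benjamini-Hochberg over all genes in each comparison, with a threshold of 0.05. The SE of a log2 fold change is its size over the root of F. Log2 CPM has a prior count of 2, and a set's mean is the mean log2 CPM of its genes. There were 21 comparisons and 1 added after the data were seen. Alternatives used DESeq2 1.42.0, limma 3.58.1, other scalings, no filter, a block and libraries left out. The fit was tested on simulated data. Members and lists of other cell cycle and marker genes were chosen with earlier results of these data known. All members are named, with full values for those called, and the genes most like each set were taken by r. Counting error falls with depth, and totals were 8385741 to 15558113.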

Additional observations from a re-analysis of the deposited data

Results flagged for a closer look

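In all, 7 values stood apart from the other libraries of their group by Dixon's test at 95%, out of 184 groups checked over 23 measures; chance alone gives about 1 in 20. All are log2 CPM. Cenpa in replicate 1 of the combination on day 5 was 2.087, where the other 4 libraries lay between 5.031 and 6.052. Tyms in replicate 4 of anti-PD-1 on day 5 was 4.278, below 5.172 to 5.414. Ccnb1 in replicate 2 of anti-PD-1 on day 2 was 5.862, below 6.228 to 6.265. Mcm6 in replicate 1 of EPAT on day 2 was 6.781, below 7.196 to 7.286. The S phase mean of replicate 2 of the combination on day 2 was 5.391, below 5.606 to 5.685. Spc24 in replicate 3 of vehicle on day 2 was 5.335, above 4.863 to 4.971, and Cenpe in replicate 3 of EPAT on day 2 was 8.609, above 8.164 to 8.276.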

How the results depend on the processing

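The median log2 fold change of either set changed sign in 9 of 478 values from other settings and in 31 of 704 with 1 library left out. These lay in 10 of 22 comparisons, where the reported median was at most 0.13 in size, and in neither the comparison of anti-PD-1 arms nor that of days averaged over treatments. The number of members called also changed. For the anti-PD-1 arms it was 3, and it became 1 with RLE size factors, library totals, scaling without rRNA-like, mitochondrial and other tissue genes, or limma-trend, 0 without the filter, 5 with DESeq2, 8 with limma-voom, 0 without the 3 libraries leading in other tissue markers, and 4 without the 3 numbered with the other day. Leaving out 1 library gave 0 to 7, and 16 of 39 such fits called none, the 16 that also lost Ccnb1: replicates 1, 2, 4 and 5 of vehicle on day 5, 2 and 3 of vehicle on day 2, 3 and 4 of anti-PD-1 on day 5, 4 of anti-PD-1 on day 2, 3, 4 and 5 of EPAT on day 2, 2, 3 and 4 of EPAT on day 5, and 5 of the combination on day 2. For the days it was 4, became 10 with DESeq2, 14 with limma-voom, 1 without the 3 libraries leading in other tissue markers and 3 without the 3 numbered with the other day, and ran from 1 (without replicate 3 of vehicle on day 5) to 10 (without replicate 1 of anti-PD-1 on day 5). Members called rose from 0 with limma-voom to 1, 2 and 1 for the combination on day 2 against vehicle, anti-PD-1 and EPAT and to 19 for EPAT between days. For anti-PD-1 between days the count was 1 with DESeq2 and 0 to 1 with 1 library left out. E2f1 in the anti-PD-1 arms changed sign, at 0.0052 without the 3 libraries leading in other tissue markers and -0.042 to 0.027 with 1 left out, as did Ccne1 between days, at -0.054 to 0.020. Genes called over the whole table were 386 for the anti-PD-1 arms, 62 to 1261 under other settings and 147 to 1300 with 1 library left out, and 332 for the days, 101 to 655 and 137 to 574. The cause of these changes was not tested.

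The second number in the library titles recurs between groups, and a replicate block on it left 1 member called for the anti-PD-1 arms. The median r of 133 pairs with the same number was 0.011, against -0.0061 for 532 pairs with different numbers. Of 39 libraries, 13 correlated best with their own number. Whether the numbers pair the libraries was not tested. The first number in the titles goes with the groups in all but 3 libraries, and no fit with it as a term was run.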
